A study of Mus musculus with 4 samples.

Results

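The 6 genes described here encode GABA-A receptor subunits and were chosen by symbol from the 32285 genes of the deposited matrices. They are Gabra2, Gabra3 and Gabra6 (the alpha2, alpha3 and alpha6 subunits), Gabrb1 and Gabrb2 (beta1 and beta2) and Gabrd (delta). All 6 were found and all 6 had UMIs (unique molecular identifiers, 1 per captured transcript) in each of the 4 libraries. GABA-A receptors are pentameric chloride channels that open when GABA binds. Their alpha, beta, gamma and delta subunits set where on the neuron the channel sits, how tightly it holds GABA and how long it stays open. In the cerebellum, granule neurons exchange subunits as they leave the external granule layer and settle in the internal one, and Gabra6 is a textbook marker of the settled granule neuron.

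The libraries were made with 10x Genomics single-cell chemistry from whole mouse cerebella, freed of meninges and dissociated with trypsin. There was 1 library in each of 4 groups: Eftud2 cKO at postnatal day 14 (P14 cKO), WT at P14 (P14 WT), Eftud2 cKO at postnatal day 10 (P10 cKO) and WT at P10 (P10 WT). Eftud2 encodes a GTPase of the U5 spliceosomal particle; the study's title places its loss in Purkinje cells, but the Cre driver, the deleted exons, sex, strain and the number of animals behind each library are not given in the sources used here. No comparison of genotype or age within a single pair of libraries has a replicate, and intervals in the text are 95% intervals, exact or, for the mature share of granule neurons, Wilson's, and cover counting error only.

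After filtering, 6148 P14 cKO, 14876 P14 WT, 6417 P10 cKO and 13723 P10 WT cells remained, with medians of 12210, 7699, 10870 and 8325 UMIs per cell in that order. Cells were placed in 12 classes by how many markers of each class they held, and no subunit gene was among the markers. Purkinje cells were not among these classes, and their marker list was only summed within the classes. Whether some Purkinje cells lie in the classes below was not tested. Eftud2 itself was therefore not checked in the cells named in the title. In granule neurons Eftud2 stood at 37.6 CPM (counts per 1e6 UMIs of that class) in P14 cKO, 35.0 in P14 WT, 40.7 in P10 cKO and 40.4 in P10 WT. P10 WT stands apart: it was counted with Cell Ranger 5.0.0, whose default leaves intronic reads out, whereas the defaults of 7.0.1 and 7.1.0, used for the others, count them. The settings used are not given in the sources used here; genes with long introns are those that this touches most. It is left out of the tests below, except that of genotype, and its values are given beside the others. Of the 6 genes, Gabrb1 (477.1 kb of introns), Gabra3 (220.2 kb), Gabrb2 (202.9 kb) and Gabra2 (130.6 kb) have long introns, whereas Gabra6 (12.2 kb) and Gabrd (10.3 kb) are compact.

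The gene models below are those of GRCm38 (mm10, GENCODE vM21). Gabra6 lies on the minus strand at chr11:42306437-42321072 and Gabrb2 on the plus strand of the same cluster at chr11:42419757-42629028. Gabra2 lies on the minus strand at chr5:70957597-71095849 and Gabrb1 on the plus strand at chr5:71658113-72149037. Gabrd lies at chr4:155384980-155398112 and Gabra3 at chrX:72432681-72656848, both on the minus strand. Gabrb1 overlaps Gabra4 on the opposite strand, and whether the authors' counting used strand is not given in the sources used here, so reads of the overlap could belong to either gene. Gabra3 also holds the miRNA genes Mir767 and Mir105 on its own strand.

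Promoter sequence is shown for the 2 genes of the chromosome 11 cluster that were high together in mature granule neurons, and for Gabra2. Gabra2 was lower in gated mature cells than in newborn ones, an order that depended on the mature gate, as given below. The windows are the 250 bases before a RefSeq start (GRCm38.p6, gene strand, 5′ to 3′); 5 of the 6 genes matched the table and the bases after each of these 3 starts lie in a GENCODE transcript. Capitals mark the half-site of nuclear factor I (NFI) proteins, TTGGC or its reverse complement GCCAA, since NFI factors are known regulators of granule neuron maturation and of Gabra6 in mouse.
Gabra6, chr11:42321073-42321322, minus strand: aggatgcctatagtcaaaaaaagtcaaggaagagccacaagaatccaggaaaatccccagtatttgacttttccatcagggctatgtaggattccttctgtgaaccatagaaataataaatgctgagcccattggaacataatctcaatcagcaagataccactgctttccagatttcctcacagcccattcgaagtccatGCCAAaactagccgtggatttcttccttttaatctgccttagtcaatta
Gabrb2, chr11:42420951-42421200, plus strand: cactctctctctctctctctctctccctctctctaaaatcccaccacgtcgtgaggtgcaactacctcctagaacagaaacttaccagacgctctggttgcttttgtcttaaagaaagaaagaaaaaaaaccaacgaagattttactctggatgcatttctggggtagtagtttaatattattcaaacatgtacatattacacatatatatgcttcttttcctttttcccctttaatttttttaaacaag
Gabra2, chr5:71095850-71096099, minus strand: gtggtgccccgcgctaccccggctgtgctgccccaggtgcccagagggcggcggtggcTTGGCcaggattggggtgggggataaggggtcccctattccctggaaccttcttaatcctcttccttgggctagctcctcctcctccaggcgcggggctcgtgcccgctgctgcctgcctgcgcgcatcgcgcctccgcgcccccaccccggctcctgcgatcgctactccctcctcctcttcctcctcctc
The Gabra6 window has GCCAA beginning 49 bases before the start and is 40.8% G and C. The Gabra2 window has TTGGC beginning 192 bases before the start and is 70.0% G and C. The Gabrb2 window, 36.8% G and C, has no such half-site, although another of its 3 RefSeq windows has TTGGC 211 bases before the start. On either strand, 41.5% of all 32851 RefSeq promoter windows hold this half-site; the full NFI palindrome, TTGGC and GCCAA with 5 bases between them, is in none of the windows of these genes and in 0.0365% of all windows. A half-site that common is a description of the letters and does not show binding.

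Maturation of granule neurons separated the subunits into groups. Newborn granule neurons were cells with both Nhlh1 and Cntn2, intermediate ones had Grin2b without that pair or fell short of the mature gate only for lack of Cbln3 and Grin2c, and mature ones held at least 6 of 12 mature markers with a UMI of Cbln3 or Grin2c among them. The mature gate held 83 P14 cKO, 19 P14 WT and 39 P10 cKO cells, and 2 P10 WT cells, whose values are not given. Its granule-lineage markers stayed high, at 4097, 3958 and 3995 CPM summed over 11 genes. Mature cells also carried more of the astroglial list (summed 988.7, 1070 and 1080 CPM in P14 cKO, P14 WT and P10 cKO, against 479.9, 457.8 and 410.5 in newborn cells), with 10, 6 and 8 of its 11 markers present and Gdf10 at 0 in each. The Purkinje list summed to 2436, 2124 and 3364 CPM in mature cells, against 818.5, 749.7 and 967.6 in newborn cells, with Pcp2, Car8, Pvalb, Skor2 and Ppp1r17 at 0 in the mature cells of each library. The part of these other-class transcripts in the levels below was not tested.

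Gabra6, whose protein gives granule cell receptors their low sensitivity to classical benzodiazepines, was the most stage-restricted of the 6 genes. It stood at 666.6 CPM in mature granule neurons of P14 cKO (interval 612.9 to 723.7), 603.6 in P14 WT (477.8 to 752.2) and 294.0 in P10 cKO (237.8 to 359.4). In newborn granule neurons it stood at 0.380, 0.0515 and 0.550 CPM in the same order, from 7, 2 and 13 UMIs. The stages did not overlap, and the lowest mature library lay far above the highest newborn one. Across the 3 libraries Gabra6 was higher in mature cells by 10.73 on the log2 scale (SE 0.30, adjusted p = 2.27e-276, edgeR's quasi-likelihood test on UMIs summed per library and stage, library as a block, Benjamini-Hochberg adjustment). Of the 13315 genes tested, 12.5% were called higher in mature cells at an adjusted p under 0.05 and 13.2% lower (1659 and 1764 genes; DESeq2 called 1512 and 770). In that fit the program took the spread to be the same for every gene, so its very small p-values rest on a spread shared over genes and not on 3 libraries alone.

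Gabrd, the extrasynaptic subunit that pairs with alpha6 in receptors giving tonic inhibition, followed the same order. It stood at 193.3 CPM in mature cells of P14 cKO, 152.8 in P14 WT and 74.3 in P10 cKO, against 2.66, 0.902 and 0.762 CPM in newborn cells of the same libraries. It was higher in mature cells in 3 of 3 libraries, by 6.64 on the log2 scale (SE 0.31, adjusted p = 5.07e-100). Gabrb2, a beta subunit of both synaptic and extrasynaptic receptors, stood at 732.2, 641.8 and 618.9 CPM in mature cells, against 7.92, 6.34 and 7.66 CPM in newborn cells. The 3 mature values lay close together and far above the newborn ones, a difference of 6.53 on the log2 scale (SE 0.23, adjusted p = 3.94e-165). In single libraries the Gabrb2 log2 ratio of mature over newborn cells was 6.53 in P14 cKO, 6.67 in P14 WT and 6.34 in P10 cKO, the narrowest range of the 6 genes.

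**Figure D1:**
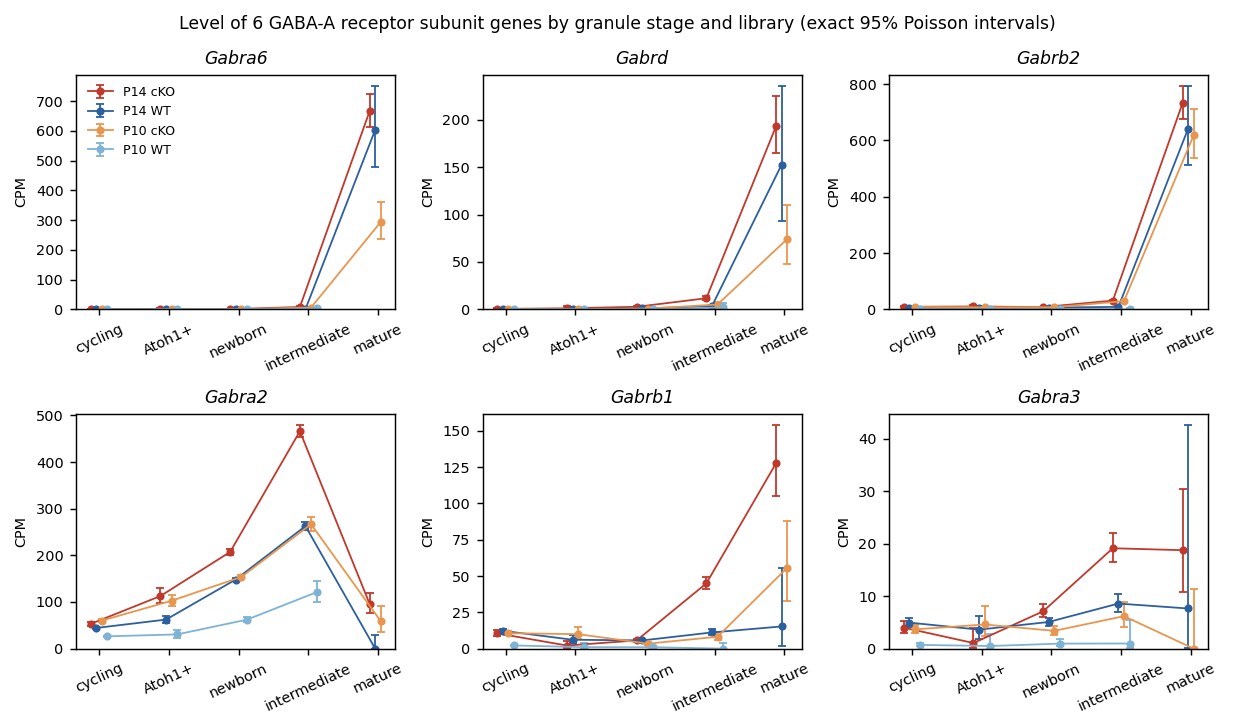
Level (CPM, linear axis) of each of the 6 genes along 5 granule stages, low to high maturity, in the 4 libraries; points are summed UMIs of a stage in 1 library, bars exact 95% Poisson intervals, and P10 WT has no mature point because that gate held 2 cells. Gabra6, Gabrd and Gabrb2 stay near 0 until the mature stage, whereas Gabra2 is highest at the intermediate stage.

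Gabra2, the alpha subunit that many immature neurons use, ran the other way at the last step. Along the stages it stood at 53.0, 44.4 and 60.2 CPM in cycling progenitors of P14 cKO, P14 WT and P10 cKO, 112.8, 62.3 and 102.7 in Atoh1+ progenitors, 207.4, 148.2 and 153.7 in newborn neurons and 466.1, 262.8 and 266.8 in intermediate neurons. In mature neurons it stood at 96.1 CPM in P14 cKO and 58.8 in P10 cKO, and P14 WT had 0 UMIs, which allows up to 22.9 CPM. Intermediate levels lay above newborn levels within each of these 3 libraries, with log2 ratios of 1.17, 0.83 and 0.80. The mature level was lower than the newborn one in 3 of 3 libraries, by 1.10 (0.79 to 1.44) and 1.35 (0.74 to 2.12) on the log2 scale in P14 cKO and P10 cKO. In P14 WT, with 0 UMIs, the interval for the log2 ratio of mature over newborn cells ended at -2.39. The fit gave a log2 difference of -1.45 (SE 0.23, adjusted p = 7.71e-09). This call depended on the gate, whose Cbln3 or Grin2c criterion was itself added after values of the subunit genes had been seen. With at least 6 mature markers but no Cbln3 or Grin2c UMI required, also an alternative chosen after seeing the data, the difference turned to 0.36 (adjusted p = 0.0752). With Leiden clusters in place of gates it was -0.71 (adjusted p = 0.0957), and DESeq2 gave -2.21 (adjusted p = 0.251).

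Gabrb1, a beta subunit better known from astroglia, was also higher in mature than in newborn granule neurons, at 127.7, 15.3 and 55.7 CPM in P14 cKO, P14 WT and P10 cKO against 5.64, 5.64 and 3.43 CPM. The P14 WT value came from 2 UMIs, and its interval for the log2 ratio of mature over newborn cells ran from -1.62 to 3.31. The fit gave a log2 difference of 3.95 (SE 0.35, adjusted p = 6.89e-28). Astroglia, which hold far more Gabrb1 than any granule stage, had transcripts in these cells (the astroglial sums above), and their part in this value was not tested. Gabra3, an alpha subunit of many embryonic neurons, had 16, 1 and 0 UMIs in mature cells (18.7, 7.64 and 0 CPM) against 7.11, 5.07 and 3.39 CPM in newborn cells, and did not pass the test (log2 difference 0.95, SE 0.62, adjusted p = 0.282). Without P14 cKO its difference was -0.77, and with the looser mature gate it was 1.47 (adjusted p = 0.0038), so no direction is given for it.

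Mature markers were also counted after each cell was thinned to 3000 UMIs, so that this count was read at equal depth. The cells binned were still picked with gates read at full depth, for the granule lineage outside the cycling and Atoh1+ stages. With 0, 1, 2, 3, 4 and at least 5 of the 12 markers, Gabra6 stood at 0.506, 0.439, 0.745, 1.27, 9.33 and 330.7 CPM in P14 cKO. In P14 WT the same bins gave 0, 0.0678, 0, 0.687, 0 and 379.4 CPM, and in P10 cKO 1.24, 0.448, 0.466, 1.08, 21.4 and 344.9 CPM. The level in all 3 libraries stayed under 2 CPM up to 3 markers and was above 300 CPM from 5 markers on. Gabra2 in P14 cKO ran 104.2, 163.5, 343.3, 442.6, 533.6 and 300.1 CPM over the bins, in P14 WT 101.4, 137.8, 204.2, 287.0, 251.7 and 192.1 CPM, and in P10 cKO 105.6, 135.2, 221.0, 270.9, 308.8 and 86.2 CPM. In each library Gabra2 was highest at 3 or 4 markers and lower in the last bin, which held 182, 29 and 39 cells; the bin of 4 markers held 197, 54 and 23. In both P14 libraries, however, the last bin lay above the bins of 0 and 1 markers, unlike the gated mature cells, which lay below newborn ones; in P10 cKO it lay below both bins. At 4 markers Gabrb2 stood at 41.3 CPM in P14 cKO, 2.47 in P14 WT and 68.6 in P10 cKO, and at 5 or more at 380.6, 422.7 and 834.5 CPM.

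Few cells carried most of the Gabra6 signal. Mature cells were 3.32% of granule neurons in P14 cKO (interval 2.69 to 4.097), 0.277% in P14 WT (0.177 to 0.432) and 1.43% in P10 cKO (1.05 to 1.95), yet they held 86.7%, 89.8% and 70.4% of the granule neurons' Gabra6 UMIs. Of Gabrb2 they held 57.4%, 19.7% and 39.0%, and of Gabrd 49.4%, 21.5% and 36.9%. Gabra2 came almost wholly from the earlier stages: mature cells held 0.944% of its UMIs in P14 cKO, 0 of 8723 in P14 WT and 0.391% in P10 cKO, whereas newborn cells held 44.0%, 65.9% and 74.7%. Gabrb1 lay between, with 16.2%, 0.576% and 13.2% of its granule neuron UMIs in mature cells.

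**Figure D2:**
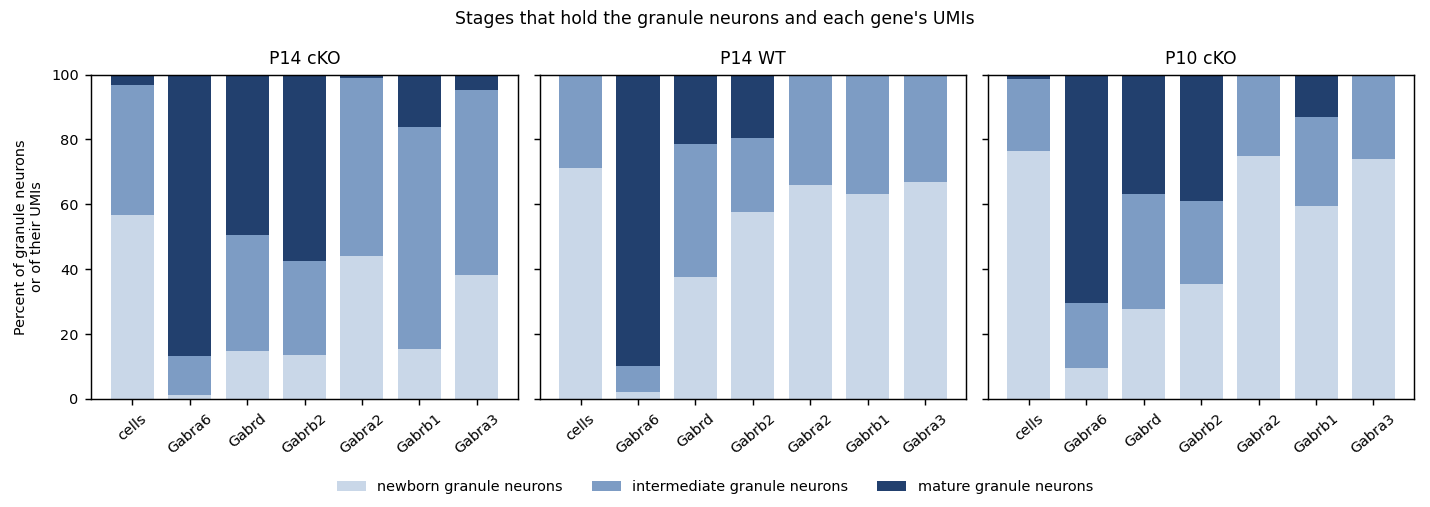
For P14 cKO, P14 WT and P10 cKO, the stacked bars give the percent of granule neurons (first bar) and of each gene's granule neuron UMIs that fall in newborn, intermediate and mature cells. The mature block is under 4% of cells in each panel but over 70% of Gabra6 UMIs.

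Among mature cells thinned to 3000 UMIs, 75.6% of P14 cKO cells and 53.3% of P10 cKO cells held a Gabra6 UMI (85.5% and 64.1% before thinning, at medians of 9262 and 6033 UMIs), against at most 0.280% of microglia, a class that should lack it. P14 WT had too few mature cells at that depth for a share. Gabrb2 was found in 81.7% and 76.7% of these mature cells and Gabrd in 45.1% and 26.7%. Over the 3 libraries, 91 of 129 thinned mature cells held a Gabra6 UMI. Gabra2 was found in 4.40% of those (1.21 to 10.9) and in 34.2% of the 38 mature cells without one (19.6 to 51.4). Within P14 cKO the shares were 4.84% and 45.0%, and within P10 cKO 6.25% and 28.6%, the last pair with overlapping intervals. Gabrb2 ran the opposite way, in 90.1% of mature cells with Gabra6 and 60.5% of those without. Gabrd was found in 44.0% (33.6 to 54.7) and 26.3% (13.4 to 43.1), and Gabrb1 in 13.2% and 18.4%, both with overlapping intervals. Cells of a library are not replicates, so no test was run on these shares.

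**Figure D3:**
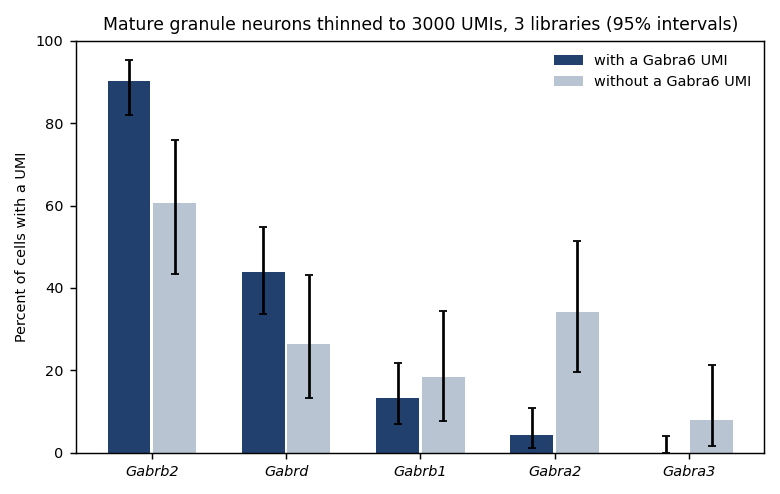
Percent of mature granule neurons, thinned to 3000 UMIs and taken over 3 libraries, that held a UMI of each gene, split by whether the cell held a Gabra6 UMI (91 cells) or not (38 cells), with exact 95% binomial intervals. Gabrb2 is found more often, and Gabra2 less often, beside Gabra6.

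The rest of the GABA system was read from 5 lists of 47 genes. Of 13 other GABA-A subunit genes 5 could be tested between mature and newborn granule neurons, 3 were higher and 0 lower, with a median log2 difference of 1.62 against -0.14 over all genes. Beside this and the other list counts of this comparison stand the 12.5% of all genes called higher and 13.2% called lower; with so few genes a list, a count of 1 is near those shares.

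Of 7 chloride transporter genes 6 were tested, 3 were higher and 0 lower, with a median of 0.77. Slc12a5, the potassium-chloride exporter KCC2 that makes GABA hyperpolarizing, stood at 120.7, 122.2 and 83.5 CPM in mature cells, against 0.597, 0.283 and 0.719 CPM in newborn cells (log2 difference 7.68, adjusted p = 1.39e-80). Slc12a2, the chloride importer NKCC1, was higher by 1.04 (adjusted p = 1.53e-05). Of 14 genes for the inhibitory scaffold and receptor trafficking 13 were tested, 4 were higher, Insyn1 (6.49) among them, and 1 was lower, Gabarap (-0.83); the median was 0.01. Of 6 GABA-B receptor genes 2 were higher, Kctd8 (2.44) and Gabbr2 (0.83), and 1 was lower, Kctd16 (-2.50). Of 7 genes for GABA uptake and breakdown 3 were tested, 0 were higher and 1 was lower.

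GABAergic interneurons used another set. Their gate held 478 P14 cKO, 342 P14 WT, 516 P10 cKO and 195 P10 WT cells. The Purkinje list was higher there than in granule neurons (summed 9248, 10900 and 10050 CPM in P14 cKO, P14 WT and P10 cKO against 981, 748 and 1008). Of its 11 markers 8, 7 and 9 were present, and Rora alone gave 8952, 10700 and 9733 CPM. Skor2 and Ppp1r17 were at 0 in all 3. Whether Purkinje cells lie in this gate was not tested. Gabrb2 stood at 139.2 CPM in interneurons of P14 cKO, 181.0 in P14 WT and 92.1 in P10 cKO, against 36.8, 8.496 and 18.01 CPM in granule neurons of all stages. It was higher in 3 of 3 libraries, by 2.75 on the log2 scale (SE 0.45, adjusted p = 0.00446, edgeR's quasi-likelihood test); 19.3% of 15003 genes were called higher in interneurons and 19.9% lower. Interneurons held 35.9%, 31.4% and 33.5% of all Gabrb2 UMIs in these libraries. Mature granule neurons alone stood above interneurons for Gabrb2, at 732.2, 641.8 and 618.9 CPM in the same order. In the interneurons without a Pax2 UMI (21 cells in P14 cKO and 35 in P14 WT), Gabrb2 stood at 434.6 and 318.9 CPM.

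Gabra6, Gabrd and Gabra2 were lower in interneurons than in granule neurons of all stages. Gabra6 stood at 1.11, 1.54 and 0.521 CPM in interneurons of P14 cKO, P14 WT and P10 cKO, against 22.2, 1.75 and 4.74 CPM in granule neurons, a log2 difference of -3.46 (SE 0.61, adjusted p = 0.00593). The P14 WT values lay close together, the call was lost without P14 cKO (-2.02, adjusted p = 0.0663), and without the library block the adjusted p was 0.0545. Gabrd stood at 0.948, 0.770 and 0.174 CPM, from 6, 2 and 1 UMIs, against 11.3, 1.85 and 2.28 CPM. Its log2 difference was -3.28 in the same test (SE 0.47, adjusted p = 0.00245). In P14 WT alone the Gabrd log2 ratio was -0.95, with an interval of -4.33 to 0.63. Gabra2 stood at 121.0, 85.1 and 51.2 CPM against 294.0, 173.6 and 170.6 CPM, lower in 3 of 3 libraries (log2 difference -1.44, SE 0.13, adjusted p = 0.000316). Gabra3 did not pass the test (log2 difference 0.43, adjusted p = 0.263), nor did Gabrb1 (-0.68, adjusted p = 0.155). Gabra3 passed without P14 cKO (0.87, adjusted p = 0.0455) and Gabrb1 without P14 WT (-1.03, adjusted p = 0.0491).

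In the same comparison, 4 of 7 genes for GABA uptake and breakdown were tested and all 4 were higher in interneurons, with a median of 2.21 against 0.00 over all genes. Beside these list counts stand the 19.3% of all genes called higher and 19.9% called lower. Slc6a11, the GAT-3 transporter, was higher by 4.11 (SE 0.29, adjusted p = 0.000127). Of 8 other GABA-A subunit genes tested, 2 were higher and 0 were lower. Of the GABA-B genes Kctd16 (1.07), Gabbr2 (0.63) and Kctd12b were higher, and Kctd8 (-3.21) and Gabbr1 (-0.23) lower. Of 13 scaffold and trafficking genes tested 2 were higher, Shisa7 (2.04) and Zdhhc3 (0.24), and 5 lower, Gabarap (-0.45) among them, the higher count being below the share over all genes. Of 7 chloride transporter genes Slc4a3 (0.40) was higher, and Clcn2 (-0.86) and Slc12a2 (-0.49) were lower.

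Astroglia were the main source of Gabrb1. The gate held 203 P14 cKO, 804 P14 WT, 130 P10 cKO and 320 P10 WT cells. Gabrb1 stood at 2441 CPM in P14 cKO, 2554 in P14 WT, 2186 in P10 cKO and 467.3 in P10 WT, against 22.8, 6.90, 4.77 and 0.870 CPM in granule neurons. Every library showed the same order, and across the 3 tested ones the difference was 7.99 on the log2 scale (SE 0.47, adjusted p = 1.32e-06); 32.1% of 15925 genes were called higher in astroglia and 33.8% lower. Astroglia made up 3.30%, 5.40%, 2.03% and 2.33% of cells in P14 cKO, P14 WT, P10 cKO and P10 WT, and held 82.6%, 90.2%, 80.6% and 81.7% of all Gabrb1 UMIs. After thinning to 3000 UMIs, 88.5%, 95.4%, 91.4% and 67.3% of astroglial cells held a Gabrb1 UMI. Ependymal cells came next, at 525 CPM in P14 WT (36 cells) and 81.7 CPM in P10 WT.

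Gabra2 was also high in astroglia, at 259.4 CPM in P14 cKO, 320.0 in P14 WT, 197.9 in P10 cKO and 147.7 in P10 WT. Its difference from granule neurons did not pass the test (log2 difference 0.27, SE 0.20, adjusted p = 0.262), and without P14 cKO it was 0.52 (adjusted p = 0.00624). After thinning, 39.5%, 50.9%, 39.0% and 35.8% of astroglial cells held a Gabra2 UMI. Gabrb2 was lower in astroglia than in granule neurons (4.87, 1.95 and 3.12 CPM in P14 cKO, P14 WT and P10 cKO, log2 difference -2.54, SE 0.23, adjusted p = 2.15e-05), and so was Gabra3 (0.348, 0.573 and 1.25 CPM, log2 difference -3.46, SE 0.49, adjusted p = 0.000291). Gabra6 was lower by 1.75 on the log2 scale (SE 0.40, adjusted p = 0.00436), a call lost without P14 cKO (-0.99, adjusted p = 0.0873). Gabrd had 9.05, 1.15 and 0 CPM in astroglia and did not pass the test (-0.71, adjusted p = 0.173).

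Oligodendrocyte precursors had the highest level of Gabra3. It stood at 68.2 CPM in P14 cKO (145 cells), 68.3 in P14 WT (316), 58.8 in P10 cKO (123) and 19.7 in P10 WT (530). In the first 3 libraries no other class overlapped these levels. GABAergic interneurons stood at 10.4, 13.5 and 6.08 CPM and intermediate granule neurons at 19.1, 8.58 and 6.18 CPM, in overlapping ranges. In oligodendrocytes, the cells these precursors give rise to, Gabra3 stood at 1.10, 0 and 0.495 CPM in P14 cKO, P14 WT and P10 cKO. Precursors made up 2.36%, 2.12%, 1.92% and 3.86% of cells in P14 cKO, P14 WT, P10 cKO and P10 WT, and held 29.4%, 32.4%, 31.5% and 57.1% of all Gabra3 UMIs. After thinning, 16.7%, 17.4%, 8.33% and 4.32% of precursors held a Gabra3 UMI (58.6%, 46.2%, 47.2% and 19.4% before thinning), against none of the thinned microglia. Precursors also held Gabrb2, at 51.2, 56.5 and 59.7 CPM in P14 cKO, P14 WT and P10 cKO, with 1.65, 0.943 and 1.73 CPM in oligodendrocytes. Gabrb1 stood at 58.3, 39.6 and 38.5 CPM and Gabra2 at 31.0, 48.2 and 44.2 CPM in precursors. No test was fixed for this class, and these are descriptions.

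**Figure D4:**
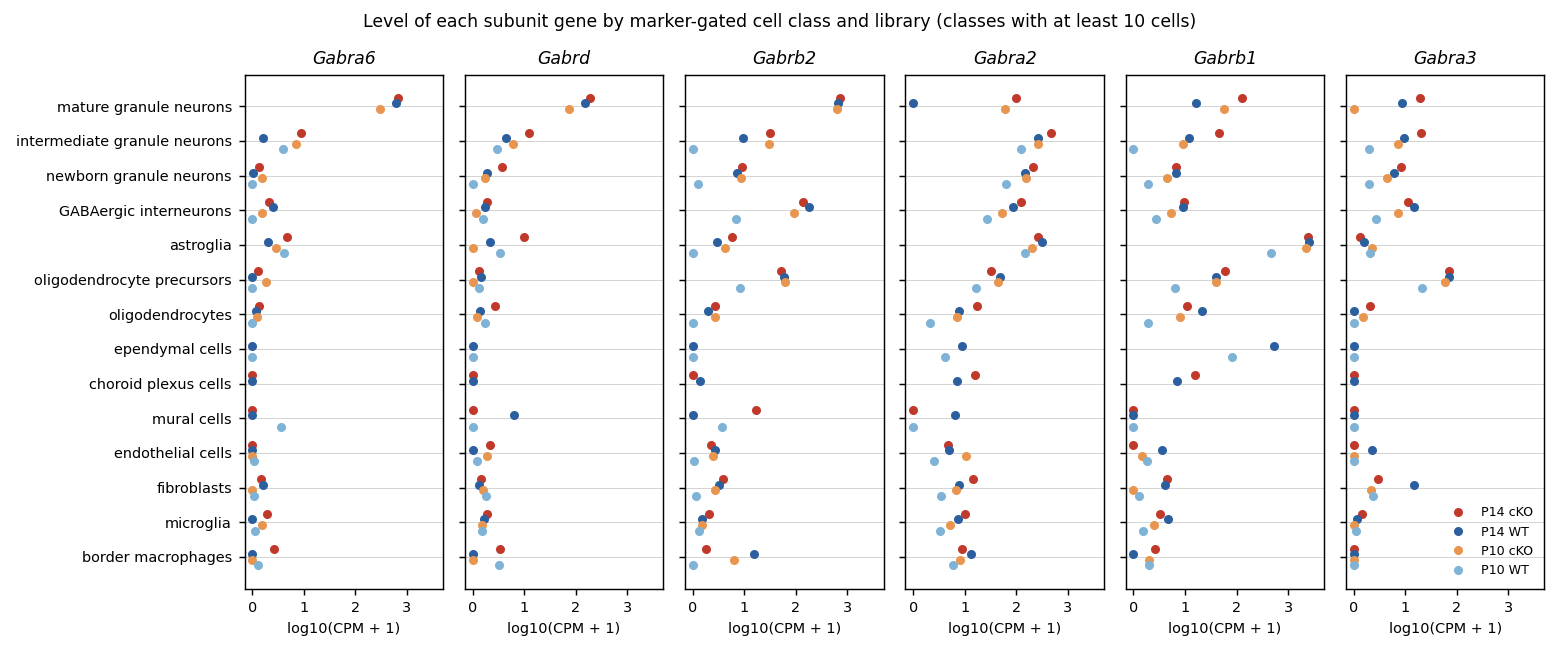
Level of each gene on a log10(CPM + 1) axis in classes with at least 10 cells; each point is the summed UMIs of 1 class in 1 library. Mature granule neurons are highest for Gabra6, Gabrd and Gabrb2, astroglia for Gabrb1 and oligodendrocyte precursors for Gabra3.

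Ordered by the lowest and highest of the 3 libraries, mature granule neurons stood apart from every other class for Gabra6, Gabrb2 and Gabrd. For Gabrb2, interneurons came second and oligodendrocyte precursors the third, each apart from the class below. For Gabra2, intermediate granule neurons (262.8 to 466.1 CPM), astroglia (197.9 to 320.0) and newborn granule neurons (148.2 to 207.4) overlapped from one to the next, and newborn neurons stood apart from Atoh1+ progenitors (62.3 to 112.8). Gabra3 outside precursors ran in overlapping steps down to 0 CPM.

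Over 42 profiles of class and library, the genes most like each subunit were named by Pearson's r of log2(CPM + 1) among 13568 genes; profiles of a library share its depth, and r is a description here. Most like Gabra6 were Phyhip (r = 0.94), Rgs8 (0.93) and Gm9899 (0.91). Gabrd was most like Gabra6 itself (0.90), then Bcl2l15 (0.89) and Crhr1 (0.86). For Gabrb2 they included Scn1a (0.90), which encodes a sodium channel, and Rph3a (0.89), and for Gabra2 they were Syndig1 (0.94), Gpm6a (0.94) and Gria4 (0.93), which encodes an AMPA receptor subunit. Those for Gabrb1 were Cdh22 (0.87), Jakmip1 (0.87) and Gm48747 (0.87), and those for Gabra3 Cntnap5b (0.85), 4930445B16Rik (0.84) and Fbll1 (0.83). Among the 6 genes themselves r ran down to 0.09, for Gabrd with Gabra3.

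Between genotypes at P14, granule neurons as a whole showed more of each subunit in P14 cKO. Gabra6 stood at 22.2 CPM in P14 cKO and 1.75 in P14 WT, a log2 ratio of 3.66 (3.34 to 4.002). Gabrd stood at 11.3 and 1.85 CPM (2.61, interval 2.28 to 2.96), Gabrb2 at 36.8 and 8.496 CPM (2.12, 1.95 to 2.28) and Gabrb1 at 22.8 and 6.90 CPM (1.72, 1.54 to 1.92). Gabra3 stood at 11.6 and 5.87 CPM (0.98, 0.76 to 1.21) and Gabra2 at 294.0 and 173.6 CPM (0.76, 0.72 to 0.80). Thus 4 of the 6 were at least 2-fold higher, where 7.74% of 16315 genes with at least 20 UMIs were. With 1 library per group these ratios compare 2 libraries and have no test.

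The stages of these libraries differed too. Mature cells were 3.32% of granule neurons in P14 cKO and 0.277% in P14 WT, and with markers counted after thinning to 3000 UMIs, cells with at least 5 mature markers were 7.22% (6.24 to 8.31) and 0.420% (0.281 to 0.602). Within the mature gate, Gabra6 differed by 0.14 (-0.20 to 0.50), Gabrb2 by 0.18 (-0.14 to 0.54) and Gabrd by 0.31 (-0.33 to 1.09) on the log2 scale, each interval reaching below 0. The largest ratio over all granule neurons, that of Gabra6, thus had an interval that includes 0 in the mature gate. In some other stages its interval lay above 0. Cycling progenitors gave 4.30 (2.54 to 7.73), from 19 and 2 UMIs of Gabra6 in P14 cKO and P14 WT. Newborn cells gave 2.66 (0.49 to 6.18), from 7 and 2 UMIs, under the 20 UMIs asked of a ratio elsewhere. Outside the lineage, Gabra6 had 11 and 9 UMIs in astroglia (1.88, 0.48 to 3.34) and 6 and 0 in microglia. Interneurons had 7 and 4 UMIs (-0.55, -2.45 to 1.74). The part of stage in the ratio over all granule neurons was not tested. In cells with at least 5 thinned markers the Gabra6 ratio was -0.21 (-0.54 to 0.16). Gabrb1 and Gabra2 were higher in the mature cells of P14 cKO, on few UMIs from 19 cells in P14 WT. Gabrb1 stood at 127.7 CPM in P14 cKO and 15.3 in P14 WT, the latter from 2 UMIs (2.75, interval 1.18 to 6.13). Gabra2 had 0 UMIs in P14 WT, and the interval of its log2 ratio began at 1.74. With at least 5 thinned markers (182 and 29 cells) the differences were smaller: Gabra2 stood at 300.1 CPM in P14 cKO and 192.1 in P14 WT (0.63, 0.18 to 1.14) and Gabrb1 at 104.7 and 24.0 CPM (1.99, 0.88 to 3.76). Within the mature gate, 2 of 5 members with at least 20 UMIs were at least 2-fold higher, where 8.59% of 6860 genes were. The P14 WT mature cells all fell in 1 expression cluster, which held 89.2% of those of P14 cKO; another cluster held 9.64% of the P14 cKO cells.

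The intermediate gate gave large ratios, but its cells were not equally mature in the 2 libraries: 200 of 1003 cells in P14 cKO and 14 of 1967 in P14 WT held at least 6 mature markers without Cbln3 and Grin2c. Gabra6 stood at 7.80 CPM in P14 cKO (80 UMIs) and 0.619 in P14 WT (7 UMIs), a log2 ratio of 3.56 (2.55 to 5.02). Gabrb1 (2.01), Gabrb2 (1.84), Gabrd (1.79) and Gabra3 (1.15) were also at least 2-fold higher, and Gabra2 was higher by 0.83 (466.1 and 262.8 CPM). That is 5 of 6 members, where 6.77% of 13610 genes were. Different clusters held this gate in the 2 libraries, with 71.7% of P14 cKO cells in 1 cluster and 41.9% of P14 WT cells in another. At matched marker counts after thinning, some ratios were smaller and some were larger. With 3 markers Gabra6 gave 0.68 (-1.60 to 4.23) and Gabrd 0.71 (-0.17 to 1.74). Gabrb1 gave 2.05 there, with an interval above 0, Gabrb2 1.00 (0.39 to 1.70) and Gabra3 1.42 (0.75 to 2.21). With 4 markers (197 and 54 cells), Gabrb1 gave 0.14, Gabrd -0.40 and Gabra3 -0.46, each with an interval that includes 0. Gabra2 gave 1.08 (0.79 to 1.39) there and Gabrb2 3.49 (1.55 to 9.385), the latter from 93 and 1 UMIs. With 2 markers Gabrd gave 1.72 (1.04 to 2.46), Gabra3 1.30, Gabrb1 0.87 and Gabrb2 0.55. In newborn cells the ratios were 0.49 for Gabra2, 0.49 for Gabra3, 0.32 for Gabrb2 and 0.00 for Gabrb1, whereas Gabrd, at 2.66 CPM in P14 cKO (49 UMIs) and 0.902 in P14 WT (35 UMIs), gave 1.55 (0.90 to 2.23).

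**Figure D5:**
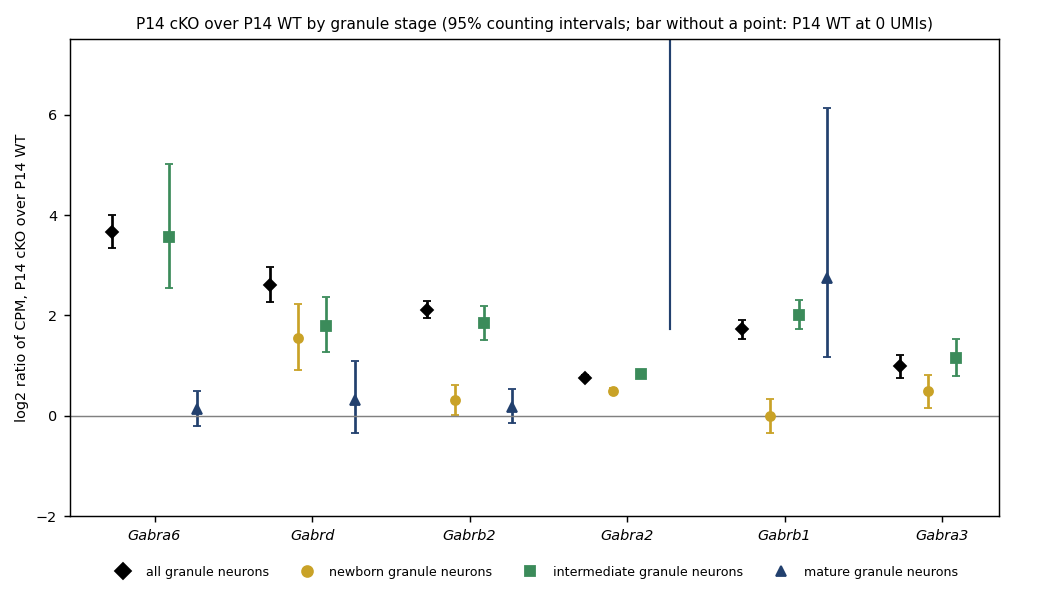
Log2 ratio of CPM, P14 cKO over P14 WT, for each gene in all, newborn, intermediate and mature granule neurons, with 95% counting intervals; ratios from under 20 UMIs are not drawn, and the bar without a point (mature Gabra2) has 0 UMIs in P14 WT. For Gabra6, Gabrd and Gabrb2 the mature interval includes 0, while all granule neurons together lie above 2.

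Outside the granule lineage the classes richest in a subunit gave smaller log2 ratios. Gabrb1 in astroglia stood at 2441 CPM in P14 cKO and 2554 in P14 WT (log2 ratio -0.07, -0.10 to -0.03), and Gabra3 in oligodendrocyte precursors at 68.2 and 68.3 CPM (0.00, -0.26 to 0.26). Gabrb2 in interneurons stood at 139.2 and 181.0 CPM (-0.38, -0.54 to -0.21), and its ratio was -0.01 when gates were read after thinning. Gabra2 was higher in P14 cKO interneurons (121.0 and 85.1 CPM, 0.51) and lower in P14 cKO astroglia (259.4 and 320.0 CPM, -0.30) and precursors (31.0 and 48.2 CPM, -0.63). Gabrd, near background in most of these classes, stood at 9.05 CPM in P14 cKO astroglia and 1.15 in P14 WT astroglia (2.94). Gabra6 (1.88, from 11 and 9 UMIs) and Gabrb2 (1.33, from 14 and 17 UMIs) were also higher in P14 cKO astroglia. That is 3 of 5 members with at least 20 UMIs at least 2-fold higher, where 3.95% of 13499 genes were. In oligodendrocytes 2 of 4 were, Gabra2 (1.26) and Gabrd (1.92), where 7.13% of 13140 genes were. In interneurons and in precursors 0 of 4 were, where 4.14% and 1.62% of genes were. Partly different clusters held the astroglia of these libraries: 1 cluster held 46.3% of P14 cKO and 37.7% of P14 WT cells, another 37.9% of P14 cKO cells and another 47.5% of P14 WT cells.

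Within the cKO, the later age held more of each subunit in granule neurons as a whole. Comparing P14 cKO with P10 cKO, the log2 ratio was 2.30 for Gabrd, 2.25 for Gabrb1, 2.22 for Gabra6, 1.61 for Gabra3, 1.03 for Gabrb2 and 0.78 for Gabra2. Of the 6, 5 were at least 2-fold higher, where 7.64% of 15793 genes were. The stages of these libraries differed as well. Mature cells were 3.32% of granule neurons in P14 cKO and 1.43% in P10 cKO, and intermediate cells 40.1% and 22.0%. The part of stage in these ratios was not tested. In the mature gate Gabra6 stood at 666.6 CPM in P14 cKO and 294.0 in P10 cKO (1.18, 0.87 to 1.51), Gabrd at 193.3 and 74.3 CPM (1.36, 0.76 to 2.06) and Gabrb1 at 127.7 and 55.7 CPM (1.16, 0.47 to 2.004). Gabrb2 stood at 732.2 and 618.9 CPM (0.24, 0.01 to 0.48). Of 5 members with at least 20 UMIs, 3 were at least 2-fold higher, where 8.14% of 7459 genes were. These mature ratios depended on the gate, whose Cbln3 or Grin2c criterion was added after values of the subunit genes had been seen. With the looser mature gate, also chosen after seeing the data, Gabra6 turned to -0.31, Gabrd to -0.34 and Gabrb2 to -1.19. With at least 5 thinned markers (182 and 39 cells), Gabrb2 stood at 380.6 CPM in P14 cKO and 834.5 in P10 cKO (-1.14, -1.34 to -0.92), Gabra6 gave -0.07 (-0.37 to 0.26) and Gabrd -0.03 (-0.55 to 0.57), while Gabrb1 gave 1.68 (0.80 to 2.90). No direction with age is therefore given for Gabra6, Gabrd or Gabrb2 within mature cells. Gabra2 stood at 96.1 CPM in the mature gate of P14 cKO and 58.8 in that of P10 cKO. With at least 5 thinned markers it stood at 300.1 and 86.2 CPM (1.77, 1.22 to 2.44). In interneurons Gabra2 (121.0 and 51.2 CPM, 1.24) and Gabrb2 (139.2 and 92.1 CPM, 0.60) were higher in P14 cKO. P14 cKO is the upper library of both this and the genotype comparison, so they are not independent.

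The only test of genotype the design allows sets both cKO libraries against both WT libraries in granule neurons, with age as a term and 1 residual degree of freedom. The log2 differences were 3.43 for Gabrb2, 3.33 for Gabra6, 2.79 for Gabrd, 2.03 for Gabrb1, 1.43 for Gabra3 and 1.03 for Gabra2. All 6 were positive and none passed (adjusted p = 0.842 for each, edgeR's quasi-likelihood test); 0.0% of 15806 genes did, and 336 genes had an unadjusted p under 0.05, or 2.13%. DESeq2 called 84 genes, 78 higher and 6 lower, Gabra6 (adjusted p = 0.000607) and Gabrb2 (adjusted p = 0.0119) among them. P10 WT, counted with the other program version, enters this test, and for Gabrb2 the log2 ratio was 5.24 in the P10 pair and 2.12 in the P14 pair, so its place at the top and its DESeq2 call cannot be told apart from the counting. In simulated data of this design the edgeR test recovered 11% of 4-fold changes and 0% of 2-fold ones.

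The P10 pair cannot separate genotype from counting, since P10 WT alone was counted by the older program. Gabrb2, with its long introns, stood at 18.01 CPM in granule neurons of P10 cKO and 0.435 in P10 WT (log2 ratio 5.24, 4.14 to 7.001). Gabrb1 in astroglia stood at 2186 and 467.3 CPM (2.23, 2.14 to 2.32), and Gabrb2 in oligodendrocyte precursors at 59.7 and 7.07 CPM (3.07). Ratios that large in 3 classes are shown as values of these libraries, and the genotype and the counting cannot be told apart in them. Gabra6, whose gene is compact, had 0 UMIs in newborn granule neurons of P10 WT and stood at 0.609 CPM (7 UMIs) over all its granule neurons, against 4.74 in P10 cKO. Mature cells were 2 of 1588 granule neurons in P10 WT and 39 of 2732 in P10 cKO. The parts of stage, counting and genotype in this gap were not tested.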

How the data were processed

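Single-cell RNA was measured in 4 libraries, 1 per group, from whole cerebella. The authors deposited unnormalized UMI counts per gene and barcode (32285 genes), with total counts of 91091692 in P14 cKO, 145731767 in P14 WT, 92315263 in P10 cKO and 158017834 in P10 WT. Per the file headers they were made with Cell Ranger 7.1.0 (both P14 libraries), 7.0.1 (P10 cKO) and 5.0.0 (P10 WT). A different release, Cell Ranger 3.0.2, stands in the submitters' processing notes beside Seurat 4.1.3 and the mm10 build. Whether introns and strand were used in counting is not given in the sources used here. Each file's columns belong to its own sample, and no per-sample column was left out.

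From the deposited counts, cells with at least 500 genes and at most 20% mitochondrial UMIs were kept, and cells with a doublet score above 0.22 (160, 519, 176 and 557 in the order above) were removed. Library pairs shared 12 to 83 cell barcodes. A cell joined the class of which it held the largest share of markers, at least 0.5 (for the granule lineage, 4 of 11 markers), with a margin of 0.1 over the next; 86.6%, 90.1%, 91.3% and 83.8% of cells were assigned and 7.76%, 4.75%, 5.27% and 8.97% lay near that margin. Cycling cells held at least 4 of 12 cycle markers. The Cbln3 or Grin2c criterion of the mature gate was added after values of the subunit genes had been seen. UMIs were summed per class and library and given as CPM. Class comparisons used edgeR 4.0.16 (quasi-likelihood test, TMM, filterByExpr, library as a block, 2 residual degrees of freedom) in R 4.3.3 with Benjamini-Hochberg adjustment over all genes tested, called at 0.05. DESeq2 1.42.0 was an alternative. Ratios between 2 libraries add 0.5 UMI and carry exact conditional binomial intervals, levels exact Poisson intervals and shares of cells exact binomial intervals (Wilson intervals for stage shares by gate); a count of 0 is set at 3 UMIs per library for a limit. The separate libraries come from samples that the labels do not tie to numbers of animals, so p-values do not measure a spread between animals. They rest on a spread between these libraries that is shared in part over genes, and wholly so for mature against newborn cells. The libraries of the class tests also differ in age or genotype.

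On simulated counts with 200 changed genes, the test recovered 37% of 2-fold and 70% of 4-fold changes for mature against newborn cells, 80% and 97% for interneurons, and 71% and 88.9% for astroglia. Named genes are the 6 subunits, the 2 called genes of each list with the smallest adjusted p in each direction, and the 3 genes most like each subunit, some of which are not reported here; Kctd12b is named outside this rule and was chosen after its value was seen. The subunits, markers and lists were chosen with earlier results of these data known. Other tools were Python 3.11.15, numpy 2.4.6, scipy 1.17.1, pandas 2.3.3 and scanpy 1.11.5; promoter windows came from RefSeq. Alternatives covered normalization, filters, doublets, thinned gates, Leiden clusters, the library block, the looser mature gate and each library left out.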

Additional observations from a re-analysis of the deposited data

Results flagged for a closer look

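Gabrb1 in GABAergic interneurons relative to granule neurons had ratios of opposite sign between the cKO libraries and P14 WT. The log2 ratio of interneurons over granule neurons was -1.41 in P14 cKO (interval -1.85 to -1.02) and -0.11 in P10 cKO (-0.81 to 0.49), against 0.26 in P14 WT (-0.48 to 0.86) and 1.14 in P10 WT (-1.51 to 2.94, from 3 interneuron UMIs). The intervals other than that of P14 cKO include 0, so the signs there are not settled, and the difference between libraries was not tested. Interneurons of P14 cKO and P14 WT stood at 8.53 and 8.09 CPM, whereas their granule neurons stood at 22.8 and 6.90 CPM.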

How the results depend on the processing

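For mature against newborn granule neurons, Gabra6, Gabrb2, Gabrd and Gabrb1 kept their direction and call under every alternative run, with ranges over left-out libraries of 9.94 to 11.80, 6.50 to 6.60, 6.42 to 7.02 and 3.27 to 4.42. Gabra2 lost its call with DESeq2 (-2.21, a larger difference) and Leiden clusters (-0.71) and turned to 0.36 with the looser mature gate, where Gabra3 was called (1.47); Gabra3 ran from -0.77 to 1.35 over left-out libraries. DESeq2 called 1512 genes higher and 770 lower; leaving out a library gave 890 to 1580 higher and 620 to 1546 lower, lowest without P14 cKO, and the looser gate 1846 and 1452. The median log2 difference of all genes was -0.14, -0.52 with no filter and 0.63 with DESeq2, which tested more genes. For interneurons, Gabrb1 turned to 0.23 with Leiden clusters, and left-out libraries gave -1.03 to -0.031 for Gabrb1, 0.11 to 0.87 for Gabra3 and -4.11 to -2.02 for Gabra6, with 1700 to 2497 genes higher and 1775 to 2505 lower, lowest without P10 cKO. For astroglia, Gabra6 was -0.97 with P10 WT added and -0.99 to -2.22 over left-out libraries, and Gabra2 0.011 to 0.52. Without the replicate block for the library, a pairing that comes from taking both classes from the same library, the Gabra6 call was lost in interneurons (-3.36) and astroglia (-2.29) and no other call of these genes changed. For the genotype test DESeq2 gave 78 higher and 6 lower, Gabra6 at 3.36 and Gabrb2 at 3.57; leaving out a library was not run there, since no residual degree of freedom remains. For P14 cKO over P14 WT in granule neurons, Gabrb1 was 1.49 with doublets kept and Gabrb2 1.94 with thinned gates and 2.35 as a mean per cell. For P14 cKO over P10 cKO, thinned gates gave Gabra6 3.22, Gabrb1 2.87, Gabrb2 1.43 and Gabrd 2.85, Leiden clusters gave Gabrb1 2.76 and the mean per cell gave Gabra6 1.75; within mature cells the looser gate turned Gabra6 to -0.31 and Gabrd to -0.34. The causes of these shifts were not tested. The mature levels rest on 19 cells in P14 WT, so a low subunit there was not detectable under 22.9 CPM.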

Other observations

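Gabra3 in fibroblasts stood at 13.99 CPM in P14 WT (44 UMIs), against 1.95 CPM in P14 cKO, 1.14 in P10 cKO and 1.39 in P10 WT. In microglia, the class used as background above, Gabra2 stood at 9.32 CPM in P14 cKO, 6.51 in P14 WT, 4.14 in P10 cKO and 2.36 in P10 WT.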
